A study of Mus musculus with 12 samples.

Results

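The 55 genes described here encode the extracellular and membrane side of Wnt signalling: 19 Wnt ligands, 13 receptors, 14 antagonists and 9 agonists. They were taken from a list of named genes, drawn up by gene family with earlier results of these data known, and were 55 of 21887 protein-coding genes, counted on the placed nuclear chromosomes. A gene was said to have a peak in a library where a deposited peak overlapped its RefSeq span in GRCm38, or the 5 kb on either side, by at least 1 bp. The antagonists comprise the secreted inhibitors, the Kremen receptors for Dickkopf proteins and the ubiquitin ligases Znrf3 and Rnf43. The agonists comprise the R-spondins, their Lgr receptors, and Porcn and Wls, which process and export the ligands.

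DNA bound in an immunoprecipitate of MACF1 was sequenced from MC3T3-E1 cells, a line of mouse calvarial preosteoblasts. MACF1 is a cytoskeletal linker protein, and the study asked how its recovery of DNA compared between cells with MACF1 knockdown and control cells. Both groups were the same line carried through the same protocol, and each had 3 immunoprecipitates and 3 inputs, labelled 1, 2 and size3. The labels name neither the knockdown method nor separate cultures, so any p-value measures only the spread between these libraries. More than 1 lot of the antibody is listed, and which library had which lot is not stated, nor what size3 stands for. Peak lists hold no expression values, so neither the osteoblast label nor the knockdown was checked against markers.

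Wnt proteins are lipid-modified secreted ligands that bind Frizzled receptors together with the co-receptors Lrp5 and Lrp6. Binding stabilises β-catenin, which acts with TCF/LEF factors on target genes, while Ror and Ryk receptors carry signals that do not need β-catenin. In bone, Wnt signalling drives osteoblast differentiation and is held back by secreted inhibitors such as Dkk1, sclerostin and the Sfrp proteins.

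The libraries differed widely before any gene was considered. Immunoprecipitates held 18454330, 5575205 and 8175173 reads after duplicate removal in knockdown 1, 2 and size3, against 26196138, 33085606 and 10698067 in control 1, 2 and size3. Their peak lists held 21398, 4513 and 17592 peaks, against 772, 198 and 2196 in control. The redundant rate was 0.51, 0.65 and 0.02 in the knockdown immunoprecipitates, against 0.25, 0.16 and 0.01 in control. Knockdown 2 stood apart from its group: of its peaks, 0.975% overlapped a peak of knockdown 1 and 0.532% one of knockdown size3, against 1.97% for control 1 and 2.04% for control 2, although the control lists were much shorter. Peaks of knockdown 1 and knockdown size3 met each other at 9.16% and 11.6% of their own lists. Whether the library labelled knockdown 2 came from knockdown cells could not be checked from the peak lists, so the number of recurring genes and the calls between groups are also given without it. Peaks with a deposited false discovery rate of 100%, the rate from swapping immunoprecipitate and input, made up 98.4% of the knockdown 2 list, 99.7% of the control 1 list and 100% of the control 2 list. The part that duplicates or the antibody lots had in the results below was not tested, and the ratio between groups is also given scaled by depth. Macf1 itself had 1 peak in knockdown 1, 1 in knockdown size3 and 0 in the other libraries.

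Promoters are shown first because the 2 long peak lists, those of knockdown 1 and knockdown size3, differed there in the genes they reached. RefSeq promoter windows of GRCm38.p6, from 250 bases before to 50 after the start site, were at hand for 37 of the 55 genes, with 41 windows. Those of Dkk3, Dkk4, Fzd2, Fzd3, Fzd6, Fzd8, Kremen1, Lgr5, Porcn, Rspo2, Rspo3, Sfrp1, Sfrp4, Wnt10a, Wnt5a, Wnt7b, Wnt8a and Znrf3 were not in the table. A knockdown 1 peak covered or touched 14 of the 41 windows, beside 16.0% of the 21263 windows of all genes. The 14 belonged to the ligands Wnt1, Wnt2b, Wnt3a, Wnt4 and Wnt16, the receptors Fzd1, Fzd4, Fzd5, Fzd10, Ror1 and Ryk, the antagonist Wif1 and the agonists Lgr4 and Rspo1. A knockdown size3 peak reached 0 of the 41, beside 7.55% of all windows, and a control size3 peak reached 0 of the 41, beside 0.207%. Knockdown size3 peaks crossed a gene end at Wnt7b and Sfrp1, which have no window here.

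The 250 bases before the start site of 6 of these promoters, chosen after their values were seen, are printed 5′ to 3′ on the strand of the gene. Wnt1 and Wnt16 were taken because their knockdown 1 peak was overlapped by a knockdown size3 peak further into the gene. The others were taken because they hold a motif that was searched. Capitals mark a match, on either strand, to the TCF/LEF core CTTTGA, to CACCTG or to the E2F core GGCGGGAA. CACCTG is a form of the E-box bound by TCF12, and other forms of the E-box are not marked.
Wnt1 (chr15:98789607-98789856, plus strand): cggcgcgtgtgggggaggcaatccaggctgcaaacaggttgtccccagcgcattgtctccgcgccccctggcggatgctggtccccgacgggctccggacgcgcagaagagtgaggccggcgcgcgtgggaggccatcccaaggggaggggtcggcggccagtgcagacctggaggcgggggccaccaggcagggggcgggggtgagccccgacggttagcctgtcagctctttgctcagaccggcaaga
Wnt16 (chr6:22287977-22288226, plus strand): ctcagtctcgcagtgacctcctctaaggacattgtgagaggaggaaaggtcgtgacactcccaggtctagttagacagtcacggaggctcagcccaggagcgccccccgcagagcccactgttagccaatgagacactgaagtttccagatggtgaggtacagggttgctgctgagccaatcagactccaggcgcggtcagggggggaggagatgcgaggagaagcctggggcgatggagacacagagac
Wnt4 (chr4:137277385-137277634, plus strand): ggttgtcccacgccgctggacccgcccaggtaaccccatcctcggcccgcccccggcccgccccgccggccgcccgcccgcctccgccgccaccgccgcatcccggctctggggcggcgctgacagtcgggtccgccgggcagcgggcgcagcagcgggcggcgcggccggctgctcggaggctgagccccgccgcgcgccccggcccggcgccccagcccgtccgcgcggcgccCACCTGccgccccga
Ror1 (chr4:100095541-100095790, plus strand): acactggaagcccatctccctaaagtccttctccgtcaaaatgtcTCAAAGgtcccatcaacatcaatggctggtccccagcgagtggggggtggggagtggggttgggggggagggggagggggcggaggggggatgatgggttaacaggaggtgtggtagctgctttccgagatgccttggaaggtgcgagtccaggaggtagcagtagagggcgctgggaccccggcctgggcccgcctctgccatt
Fzd4 (chr7:89404116-89404365, plus strand): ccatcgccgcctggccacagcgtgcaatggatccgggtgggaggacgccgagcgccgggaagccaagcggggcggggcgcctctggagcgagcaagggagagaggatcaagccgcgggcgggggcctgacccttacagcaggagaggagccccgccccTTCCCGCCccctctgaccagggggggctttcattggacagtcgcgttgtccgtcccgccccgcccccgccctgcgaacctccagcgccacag
Wif1 (chr10:121033754-121034003, plus strand): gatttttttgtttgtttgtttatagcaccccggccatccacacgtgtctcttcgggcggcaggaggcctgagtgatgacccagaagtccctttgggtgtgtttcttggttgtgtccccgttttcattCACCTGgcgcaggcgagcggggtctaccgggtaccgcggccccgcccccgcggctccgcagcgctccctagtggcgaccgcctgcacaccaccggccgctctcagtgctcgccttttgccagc

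The sequences differ in base composition as well as in motifs. Wnt4 holds 51 CpG dinucleotides in its 300-base window and is 84.3% G and C, while Wnt16 and Ror1 hold 10 CpG each. Wnt4 has CACCTG 15 bases before the start site, and in Wif1 the same motif lies 123 bases before it. Ror1 has the TCF/LEF core 205 bases before its start, which shows as TCAAAG because it lies on the opposite strand, and Fzd4 has the E2F core 92 bases before its start. Wnt1 and Wnt16 hold none of these 3. Among all 14 promoters under a knockdown 1 peak, CACCTG occurred in 5 (Wnt2b, Wnt3a, Wnt4, Fzd5 and Wif1), beside 16.9% of all promoters over the same 250 bases. It occurred in 11 of the 41 windows of the whole gene set. The TCF/LEF core was in 2 of the 14 (Fzd1 and Ror1) and 6 of the 41, beside 12.7% of all promoters. The E2F core was in 1 of the 14 and 2 of the 41, beside 2.47%. The general E-box CANNTG, which includes CACCTG, was in 9 of the 14 and 25 of the 41, beside 62.8%. Over the promoters of all genes under a knockdown 1 peak, the like set for the 14, CACCTG was in 16.5% and the TCF/LEF core in 7.96%. The E2F core was in 3.91% of them and CANNTG in 55.5%. A match is a description of letters, not a site of binding.

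Wnt gene promoters were rich in CpG. Their median was 24 CpG dinucleotides per 300 bases, beside 13 over all windows, and with all promoters split into 3 bins by CpG number, 25 of the 41 fell in the highest bin, with 22 to 67. A knockdown 1 peak lay over 10 of these 25, beside 27.6% of all promoters in that bin. In the middle bin, with 7 to 21 CpG, it lay over 4 of 13, beside 17.5%, and in the lowest bin over 0 of 3, beside 4.47%. Windows under a knockdown 1 peak had a median of 30.5 CpG and the other windows one of 23, while over all genes these medians were 23 and 10. Knockdown size3 reached 13.0% of all promoters in the highest bin and 0 of the 25 Wnt promoters there. Whether base composition accounts for the knockdown 1 peaks was not tested.

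**Figure D1:**
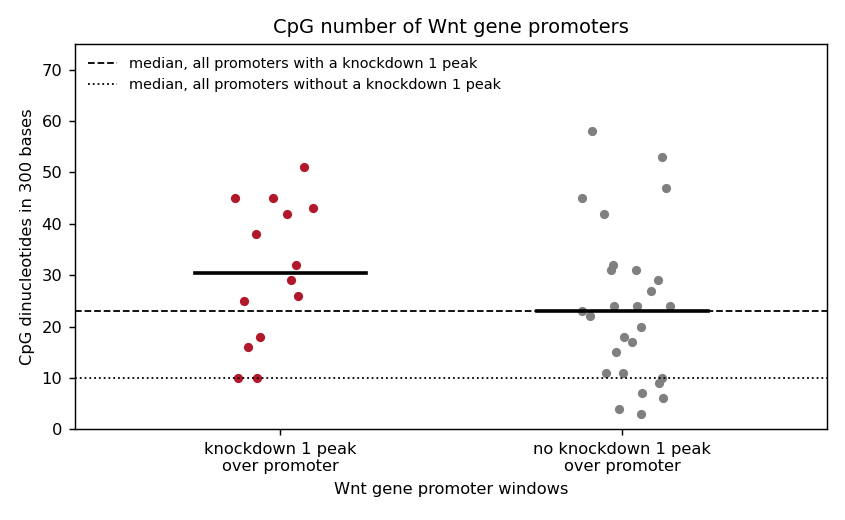
CpG dinucleotides in the 300-base promoter window (vertical axis) of each Wnt gene promoter with a knockdown 1 peak (left, 14 windows) and without one (right, 27 windows). Points are windows, thick lines their medians of 30.5 and 23, and thin lines the medians of all promoters with (23, dashed) and without (10, dotted) a knockdown 1 peak.

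Across whole genes, most of the set had a peak in the 2 long knockdown lists and few had one in control. In knockdown 1, 36 of the 55 genes had a peak (65.5%), beside 43.7% of all protein-coding genes. Knockdown size3 had a peak at 31 (56.4%), beside 35.5%, and knockdown 2 at 4 (7.27%), beside 7.95%. In control 1, 2 and size3 the numbers were 2, 0 and 5 genes (3.64%, 0% and 9.09%), beside 1.38%, 0.315% and 5.49% of all genes. The mean log2 ratio of genes with a peak, with 1 added to each number, was 2.79 for knockdown over control. It was 3.62 within label 1, 2.32 within label 2 and 2.42 within size3. Scaled by immunoprecipitate reads after duplicate removal, it was 3.94. Without knockdown 2 it was 3.71. Relative to the length of each list the direction depended on the unit. Per 1000 peaks listed, knockdown 1, 2 and size3 had 1.68, 0.886 and 1.76 genes of the set with a peak. Control 1, 2 and size3 had 2.59, 0 and 2.28. Counted as peaks at the set, the values were 3.41, 0.886 and 2.84 in knockdown and 2.59, 0 and 2.73 in control. A gene with several peaks counts once as a gene. For genes, with 1 again added to each number, the log2 ratio per 1000 peaks was -1.31. It was -1.17 within label 1, -2.19 within label 2 and -0.59 within size3, where the label 2 value rests on 0 genes in control 2. With each list held to its 198 best-scored peaks, the ratio was 0.67.

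The classes did not follow the same share. Ligands had a peak in 16 of 19 genes in knockdown 1 and 14 of 19 in knockdown size3. Receptors had 9 of 13 in knockdown 1 and 5 of 13 in knockdown size3. Antagonists had 5 of 14 in knockdown 1, below the share of all genes, and 7 of 14 in knockdown size3. Agonists had 6 of 9 and 5 of 9 in those libraries. The differences between classes were not tested. Gene length differs between them, with a median of 22906 bp for ligands, 5745 bp for receptors, 36838.5 bp for antagonists and 96611 bp for agonists, and longer genes take in more peaks.

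**Figure D2:**
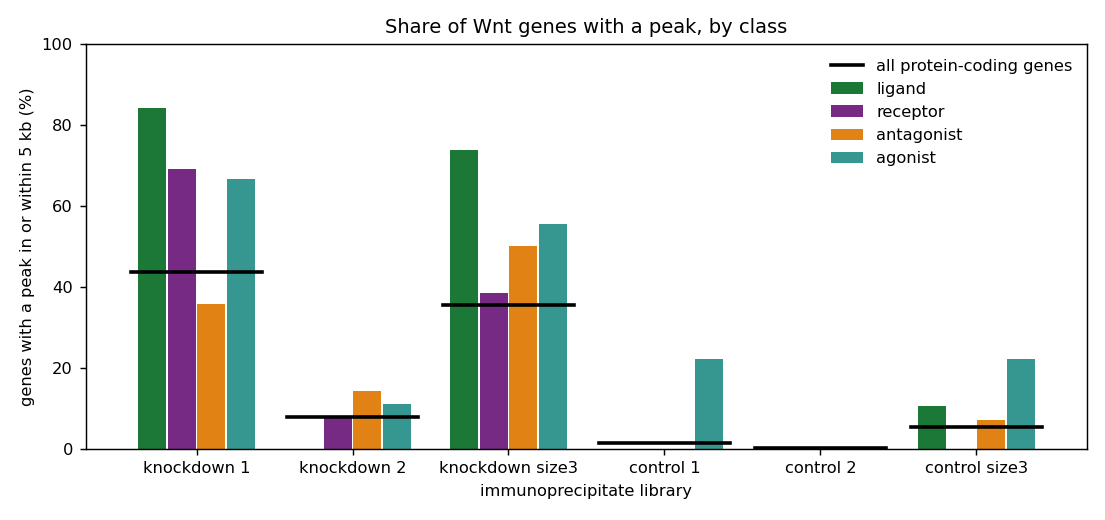
Share of the genes of each class with a peak in or within 5 kb (vertical axis, percent) in each immunoprecipitate library, with the share of all protein-coding genes as a black line. Ligands reach 84.2% in knockdown 1 and 73.7% in knockdown size3, where the lines stand at 43.7% and 35.5%.

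Genes were therefore also read within 4 bins of length, each with a like number of all genes. The median span was 30981 bp in the Wnt set and 17169 bp over all genes. Among genes of at most 5670 bp, knockdown 1 had a peak at 4 of 11 Wnt genes, beside 20.1% of all genes. It had one at 6 of 10 from 5672 to 17168 bp, beside 39.5%, at 11 of 14 from 17169 to 44337 bp, beside 47.0%, and at 15 of 20 above that, beside 68.2%. Knockdown size3 had 4 of 11, 4 of 10, 9 of 14 and 14 of 20, beside 15.4%, 29.9%, 38.1% and 58.3%. All 4 genes with a knockdown 2 peak were in the longest bin, where 21.2% of all genes had one.

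**Figure D3:**
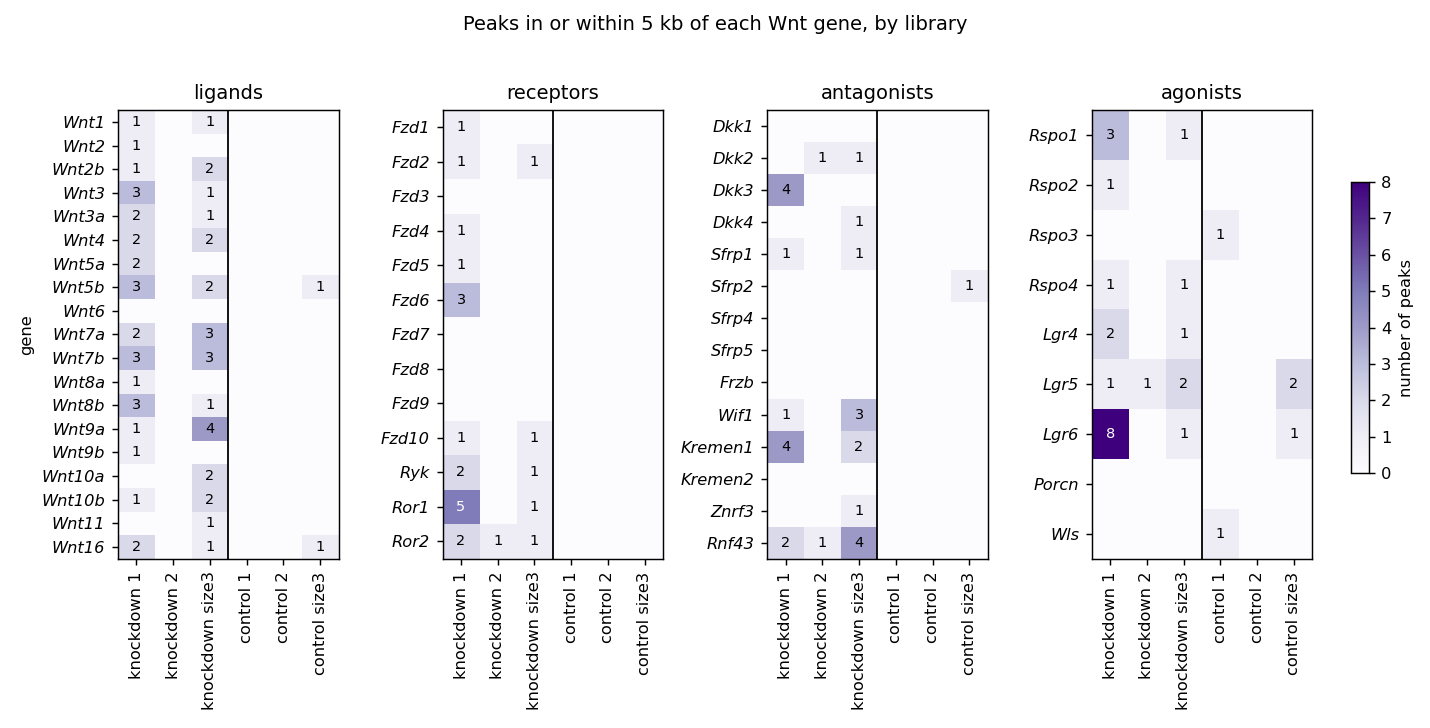
Number of peaks in or within 5 kb of each gene (colour and digit, blank for 0) in the 3 knockdown and the 3 control libraries, by class. Peaks stand mostly in the columns of knockdown 1 and knockdown size3, and knockdown 2 has 1 each at Ror2, Dkk2, Rnf43 and Lgr5. Lgr6 has the highest number, 8 in knockdown 1, and control libraries have peaks at 7 genes.

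Repeats within a group were more frequent at the level of the gene than at the level of the peak. A peak in at least 2 knockdown libraries was found at 27 genes (49.1%), beside 26.1% of all genes, and in at least 2 control libraries at 0, beside 0.457%. The 27 comprised 12 ligands, 5 receptors, 5 antagonists and 5 agonists. Leaving out knockdown 1 gave 4 of the 55 genes, beside 4.34% of all genes. Leaving out knockdown size3 gave 3 of the 55, beside 4.90%, and leaving out knockdown 2 gave 26 of the 55, beside 23.4%. All 3 knockdown libraries had a peak at Ror2, Rnf43 and Lgr5, 3 genes (5.45%) beside 3.30% of all genes. Peaks of 2 knockdown libraries overlapped by at least 1 bp at 10 genes (18.2%), beside 8.52% of all genes, each time between knockdown 1 and knockdown size3. Of these, 8 were ligands, 1 an antagonist, Sfrp1, and 1 an agonist, Lgr6, with 0 of the 13 receptors. By length bin, shortest to longest, overlap was at 1 of 11, 1 of 10, 5 of 14 and 3 of 20 genes. The shares of all genes in these bins were 4.24%, 7.17%, 8.15% and 14.5%. At the other 16 genes with peaks in both knockdown 1 and knockdown size3 the nearest peaks were 0.474 to 45.4 kb apart. The median gap was 5.34 kb. No control peak at these genes overlapped a knockdown peak.

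More peaks in every knockdown library than in every control library were found at 2 genes (3.64%), Ror2 and Rnf43, beside 2.55% of all genes. Each had an exact two-sided permutation p of 0.1 (n = 3 against 3), the smallest that 20 assignments allow, and a Benjamini-Hochberg adjusted p of 1.0 over all 21887 genes. The exact permutation test gave 0 genes of the genome a p under 0.05, adjusted or not. Both calls take knockdown 2 by its label. Without that library 23 of the 55 genes met the rule, Ror2 and Rnf43 among them, beside 21.7% of all genes. With peaks of a false discovery rate of at most 5% the number was 0, beside 0.00% of all genes.

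Peaks that recurred in place lay mostly at ligands. Wnt1, a ligand of midbrain development and of bone formation (chromosome 15, 98789857 to 98793830), had 1, 0 and 1 peaks in knockdown 1, 2 and size3 and 0 in each control library. Its knockdown 1 peak ran from the promoter over most of the gene, at 98789148 to 98793517, and held 379 reads at a fold enrichment of 3.45. The knockdown size3 peak, at 98790748 to 98791415, lay inside it with a fold enrichment of 6.31 and 25 reads, and the summits were 1639 bp apart. Wnt16, which in mice supports cortical bone (chromosome 6, 22288178 to 22298522), had 2, 0 and 1 knockdown peaks and 0, 0 and 1 control peaks in the same order of labels. Its first knockdown 1 peak, at 22287691 to 22290012, covered the start site, and the knockdown size3 peak at 22289080 to 22289813 lay within it. The second knockdown 1 peak, at 22297791 to 22298414 near the far end of the gene, had a fold enrichment of 8.44, the highest of that library in the gene set. The control size3 peak, at 22286473 to 22287253, lay upstream of these and touched neither, with a fold enrichment of 7.50 and a false discovery rate of 60.21%.

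Other shared ligand peaks lay inside the genes. Wnt8b, a forebrain ligand (chromosome 19, 44493472 to 44514273), had 3, 0 and 1 knockdown peaks and 0 in each control library. The shared one was at 44496421 to 44497159 in knockdown 1 and 44496533 to 44496984 in knockdown size3, and its summits were 24 bp apart, the closest of the ligands. Fold enrichment there was 6.84 in knockdown 1 and 9.11 in knockdown size3. Wnt4, known for kidney and ovary development (chromosome 4, 137277635 to 137299501), had 2, 0 and 2 knockdown peaks and 0 in each control library. One knockdown 1 peak covered the promoter printed above, at 137276351 to 137279295. Its fold enrichment was 4.64, and no knockdown size3 peak met it. The shared region lay about 9 kb into the gene, at 137285550 to 137286979 in knockdown 1, with summits 238 bp apart. Wnt3, needed for the body axis (chromosome 11, 103774175 to 103818021), had 3, 0 and 1 knockdown peaks and 0 in each control library. Its shared region, at 103809372 to 103814433 in knockdown 1, overlapped the knockdown size3 peak by 1999 bp. Another knockdown 1 peak, at 103769747 to 103772572, lay inside its neighbour Wnt9b, whose span runs past the start of Wnt3. It was within 5 kb of Wnt3 and was counted for both, the only peak of Wnt9b.

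Wnt5b, which signals mainly without β-catenin (chromosome 6, 119432531 to 119544824), held the highest-scored peak of the set, and the highest-scored one of knockdown size3. It had 3, 0 and 2 knockdown peaks and 0, 0 and 1 control peaks. The peak at 119478770 to 119481559 in knockdown 1 had 321 reads and a score of 250.65, the score being the peak's p-value on a negative log10 scale multiplied by 10,, but a false discovery rate of 28.12%. The knockdown size3 peak at 119479645 to 119481089 overlapped it by 1445 bp, and its summit also lay in the gene Fbxl14. A second knockdown size3 peak, at 119514515 to 119515529, had a score of 130.15 and a fold enrichment of 12.08 and was called in no other library. The control size3 peak, at 119433250 to 119434040 near the lower end of the gene, had a fold enrichment of 10.28, the highest of any control peak in the set, and a false discovery rate of 53.85%. Wnt7a, a dorsal signal of the limb (chromosome 6, 91363981 to 91411353), had 2, 0 and 3 knockdown peaks and 0 in each control library, and its overlap of 523 bp joined peaks with summits 2299 bp apart. Wnt9a, a ligand of joint formation (chromosome 11, 59306849 to 59333552), had 1, 0 and 4 knockdown peaks and 0 in each control library. Its overlap of 1180 bp, at 59313863 to 59315042, took in the whole knockdown size3 peak, with a fold enrichment of 7.04 there and 2.95 in knockdown 1.

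Several ligands had peaks in both long lists at separate places. Wnt7b, an osteogenic ligand (chromosome 15, 85535437 to 85581821), had 3, 0 and 3 knockdown peaks and 0 in each control library. Its knockdown size3 peaks lay toward the lower end of the gene and its knockdown 1 peaks toward the upper end, 16.2 kb apart at the nearest. The knockdown 1 peak at 85563692 to 85571187 was 7496 bp wide, the widest of the set. Wnt3a, a canonical ligand of the tail bud (chromosome 11, 59248036 to 59290751), had 2, 0 and 1, and the peak over its start in knockdown 1 was 0.820 kb from the knockdown size3 peak upstream. Wnt10b, which raises bone mass in mice (chromosome 15, 98770712 to 98778206), had 1, 0 and 2, with a gap of 0.474 kb. Wnt2b (chromosome 3, 104944805 to 104961709) had 1, 0 and 2, with a gap of 2.18 kb, and 1 of its knockdown size3 summits also lay in St7l. These 3 genes had 0 peaks in each control library. A peak in 1 knockdown library alone was found at Wnt2, Wnt5a, Wnt8a and Wnt9b in knockdown 1 and at Wnt10a and Wnt11 in knockdown size3. Wnt6 had no peak in any library.

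At least 2 knockdown libraries had a peak at 5 of the 13 receptors, beside 26.1% of all genes. Overlapping knockdown peaks were at 0 of the 13, beside 8.52%, and 13 genes are too few to set 0 apart from that share. Ror2, a receptor for Wnt5a (chromosome 13, 53109317 to 53286124), had 2, 1 and 1 knockdown peaks and 0 in each control library. The knockdown 2 peak, at 53152615 to 53153109, had a fold enrichment of 27.03 from 19 reads, the highest fold of the set, and a false discovery rate of 100%. Those of knockdown 1, at 53218018 to 53218567 and 53233180 to 53234698, had fold enrichments of 4.22 and 5.34, and that of knockdown size3, at 53195486 to 53196098, had 8.10. The 4 peaks lay at different places inside this long gene. Ror1, its paralogue (chromosome 4, 100095791 to 100444806), had 5, 0 and 1 knockdown peaks and 0 in each control library. One knockdown 1 peak, at 100095468 to 100096902, lay over the start site printed above, and the other 4 were 492 to 675 bp wide inside the gene. Ryk, a pseudokinase receptor (chromosome 9, 102834920 to 102908307), had 2, 0 and 1 peaks, 4.97 kb apart at the nearest, and 0 in each control library. It had the highest receptor folds of both long lists, 7.76 in knockdown 1 and 9.89 in knockdown size3.

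The Frizzled genes, which encode the main Wnt receptors, are mostly short, and the knockdown 1 peaks of Fzd1, Fzd4, Fzd5 and Fzd10 lay over the start site. Fzd10 (chromosome 5, 128601106 to 128604093) and Fzd2 (chromosome 11, 102604431 to 102608058) each had 1, 0 and 1 knockdown peaks and 0 in each control library. In both, the knockdown 1 peak covered an end of the gene and the knockdown size3 peak lay in the flank, 2.44 kb away at Fzd10 and 4.58 kb away at Fzd2. Fzd5 (chromosome 1, 64730558 to 64737750) had the best-scored receptor peak of knockdown 1, at 64734628 to 64738298 with a score of 113.1 and a fold enrichment of 3.09. Fzd4 (chromosome 7, 89404366 to 89410110) had 1 knockdown 1 peak with a fold enrichment of 4.14 over the start, where the summit also lay in the neighbouring gene Tmem135. Fzd1 had 1 knockdown 1 peak and Fzd6 had 3, while Fzd3, Fzd7, Fzd8 and Fzd9 had no peak in any library. No receptor had a control peak.

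Among the antagonists, Sfrp1 alone had a peak at the same place in 2 libraries. Sfrp1 encodes a secreted decoy for Wnt ligands (chromosome 8, 23411383 to 23449632) and had 1, 0 and 1 knockdown peaks and 0 in each control library. The peaks were at 23410952 to 23412678 in knockdown 1, where 147 reads gave a fold enrichment of 4.0, and at 23411239 to 23412112 in knockdown size3, where 20 reads gave 6.91. The score of 95.41 in knockdown 1 was the highest of the antagonists there. Both crossed the lower end of the gene, and the summits were 43 bp apart. Rnf43, which removes Frizzled receptors from the cell surface (chromosome 11, 87663087 to 87735539), had 2, 1 and 4 knockdown peaks and 0 in each control library. The 4 knockdown size3 peaks, between 87715021 and 87725361, had fold enrichments of 7.08 to 9.18, and the nearest knockdown 1 peak was 5.61 kb away. Its knockdown 2 peak had 10 reads, a fold enrichment of 13.44 and a false discovery rate of 100%.

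Kremen1, a receptor for Dickkopf proteins (chromosome 11, 5191551 to 5261713), had 4, 0 and 2 knockdown peaks and 0 in each control library. Its highest fold in knockdown 1 was 7.49. One knockdown size3 peak, at 5217640 to 5218704, had the highest fold (11.31) and score (105.11) of the antagonists in that library. Wif1, a secreted inhibitor that binds ligands (chromosome 10, 121034004 to 121100642), had 1, 0 and 3 knockdown peaks and 0 in each control library. Its knockdown 1 peak covered the promoter printed above, with a fold enrichment of 2.85, and the nearest knockdown size3 peak, inside the gene, was 15.1 kb from it. Dkk2, a secreted ligand of Lrp5 and Lrp6 (chromosome 3, 132085266 to 132180304), had 0, 1 and 1 knockdown peaks and 0 in each control library, and the knockdown 2 peak held 9 reads with a score of 60.83. Dkk3 had 4 peaks in knockdown 1 alone, and Dkk4 and Znrf3 each had 1 in knockdown size3 alone, that of Dkk4 also lying in Polb. Sfrp2, another decoy (chromosome 3, 83765750 to 83774314), had 0, 0 and 0 knockdown peaks and 0, 0 and 1 control peaks. That control size3 peak, at 83763021 to 83763724 upstream of the gene, had a fold enrichment of 7.99 and a false discovery rate of 91.05%. Dkk1, Sfrp4, Sfrp5, Frzb and Kremen2 had no peak in any library.

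The agonists held the gene with the most peaks and 4 of the 7 genes with a control peak. Lgr6, an R-spondin receptor (chromosome 1, 134983300 to 135105374), had 8, 0 and 1 knockdown peaks and 0, 0 and 1 control peaks. Its shared region, at 134986598 to 134988451 in knockdown 1 with a score of 119.97, overlapped the knockdown size3 peak by 949 bp. The control size3 peak, at 135060428 to 135061080, had a fold enrichment of 7.10 and lay between knockdown 1 peaks without touching them. Lgr5, another R-spondin receptor known as a stem cell marker (chromosome 10, 115450314 to 115587780), had 1, 1 and 2 knockdown peaks and 0, 0 and 2 control peaks. Its knockdown 1 peak had a fold enrichment of 7.16, and its knockdown 2 peak had one of 10.3 from 9 reads. No peak of Lgr5 overlapped another, and the counts of the groups overlapped (exact permutation p = 0.6). Lgr4 (chromosome 2, 109917647 to 110014257), the broadly expressed member of this family, had 2, 0 and 1 knockdown peaks and 0 in each control library. A knockdown 1 peak lay over its start with a fold enrichment of 4.77, and its knockdown size3 peak had the highest fold of that library in the set, 12.71, from 11 reads.

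R-spondins are secreted proteins that keep Frizzled receptors at the surface. Rspo1 (chromosome 4, 124986401 to 125009102) had 3, 0 and 1 knockdown peaks and 0 in each control library, with 1 knockdown 1 peak over the start at a fold enrichment of 5.33 and a score of 69.11 in knockdown size3. Rspo4 (chromosome 2, 151842647 to 151874668) had 1, 0 and 1, with peaks 5.07 kb apart, and 0 in each control library. Rspo2 had 1 peak in knockdown 1 alone. Rspo3, tied to bone density in human genetic studies (chromosome 10, 29453106 to 29535867), had 0 peaks in each knockdown library and 1, 0 and 0 control peaks. Wls, the carrier that brings Wnt proteins to the cell surface (chromosome 3, 159839650 to 159938666), likewise had 0 in each knockdown library and 1, 0 and 0 in control. The 2 control 1 peaks, at 29453548 to 29454276 in Rspo3 and 159847404 to 159848163 in Wls, each had 27 reads, a fold enrichment of 4.64 and a false discovery rate of 100%. Porcn had no peak in any library.

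The deposited values of the peaks differed between libraries. Knockdown 1 had 73 peaks at the set, with a median width of 1760 bp and a median fold enrichment of 4.14, beside 1180 bp and 4.61 for all its peaks at genes. Knockdown size3 had 50, with 814 bp and 7.0, beside 691 bp and 7.88. Knockdown 2 had 4 peaks of 264 to 495 bp with fold enrichments of 10.3 to 27.03, control 1 had 2 and control size3 had 6 of 598 to 791 bp with 7.10 to 10.28. Of the 73 peaks of knockdown 1, 71 had a false discovery rate of at most 5%, as had 32 of the 50 of knockdown size3 and 0 of the rest. Per Mb of gene window, knockdown 1, 2 and size3 had 22.5, 1.23 and 15.4 peaks at the set, beside 12.5, 1.77 and 10.1 at all genes, and control 1, 2 and size3 had 0.617, 0 and 1.85, beside 0.302, 0.0601 and 1.10. Peaks at ligands in knockdown 1 had a median width of 2810 bp, against 1160 bp at receptors, and no test of this was made.

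**Figure D4:**
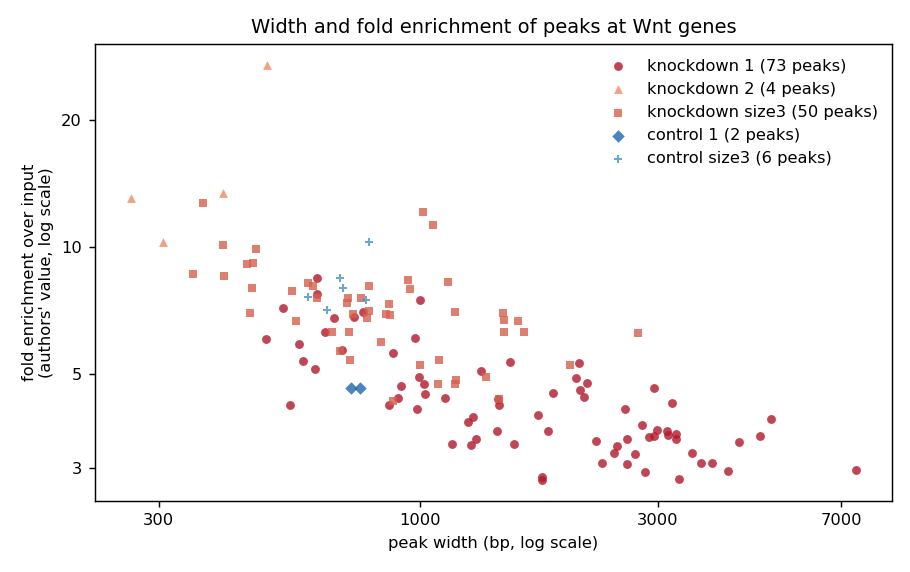
Fold enrichment over input as deposited by the authors (vertical log axis) against width in bp (horizontal log axis) of each peak at the 55 genes, by library; control 2 has none. Peaks of knockdown 1 are wide and low, from 492 to 7496 bp and 2.81 to 8.44 fold, and the 4 peaks of knockdown 2 are narrow and high.

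Position along the gene also differed between the 2 long lists. Summits of knockdown 1 lay within 1 kb of a gene end at 18 of 73 peaks (24.7%), beside 22.7% of all its peaks at genes. In knockdown size3 this held for 3 of 50 (6.0%), beside 19.1%. The shares are not like for like. That of all peaks took the nearest end of any gene within reach, and that of the set the ends of the Wnt gene alone, which raises the former. Start sites were at hand only for genes with a promoter window. Measured from these, 13 of 53 knockdown 1 summits lay within 1 kb, at 13 different genes, and 0 of 37 knockdown size3 summits did. The like share for peaks at all genes was not counted. The start-site numbers are therefore not read as a trait of the Wnt genes. The 3 knockdown size3 summits within 1 kb of a gene end, at Wnt7b, Sfrp1 and Znrf3, belong to genes without a window and were not measured. The median distance from the nearest start site was 11479 bp in knockdown 1 and 14419 bp in knockdown size3. Exons and introns were not analysed here.

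**Figure D5:**
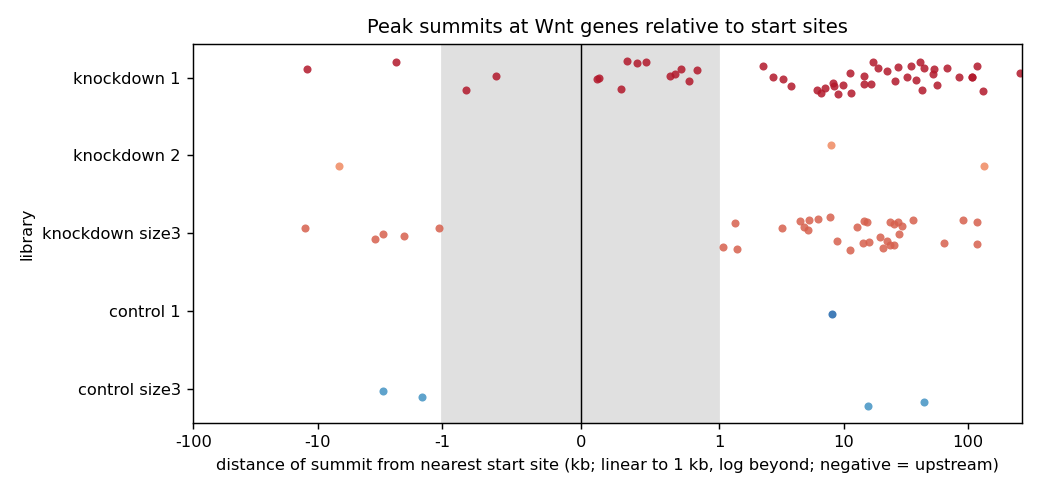
Distance in kb of each peak summit from the nearest RefSeq start site of its gene (horizontal, linear to 1 kb and logarithmic beyond, upstream negative), by library. Genes without a promoter window are left out. Within the grey band of 1 kb on either side stand 13 summits of knockdown 1 and 0 of the other libraries.

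The rest of the pathway was read from 54 further genes. Of these, 45 had a peak in knockdown 1 (83.3%), beside 43.7% of all genes. A peak was present at 8 in knockdown 2 (14.8%), beside 7.95%, and at 30 in knockdown size3 (55.6%), beside 35.5%. In control 1, 2 and size3 the numbers were 2, 0 and 7 (3.7%, 0% and 13.0%), beside 1.38%, 0.315% and 5.49%. Their median span was 55527 bp, longer than that of the 55. At least 2 knockdown libraries had a peak at 29 (53.7%), beside 26.1% of all genes. At the cell surface these were the co-receptors Lrp5 and Lrp6, with Trabd2b and Ptk7. In the cytoplasm they were Dvl3, Axin1, Axin2, Apc2, Gsk3b, Ctnnb1, Btrc, Nkd1, Nkd2 and Macf1. In the nucleus they were the 4 TCF/LEF genes Tcf7, Tcf7l1, Tcf7l2 and Lef1, with Pygo2, Tle2 and Tle4. In the polarity and calcium branches they were Vangl1, Celsr1, Celsr2, Prickle2, Daam1, Daam2, Nfatc1 and Camk2a.

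Lrp5 had 3, 1 and 2 knockdown peaks, Axin1, a scaffold of the complex that degrades β-catenin, had 3, 1 and 4, Dvl3 had 1, 1 and 1 and Daam1 had 2, 1 and 1, each with 0 in every control library (exact permutation p = 0.1, adjusted p = 1.0). These were the 4 of the 54 genes with more peaks in every knockdown library than in every control library, beside 2.55% of all genes. Ctnnb1, which encodes β-catenin, had 3, 0 and 1 knockdown peaks and 0 in each control library. Btrc, a ubiquitin ligase subunit that recognises β-catenin, had 0, 2 and 4 knockdown peaks and 2, 0 and 1 control peaks, the one gene of the 54 with a peak in 2 control libraries. Tle4, a corepressor, had 2, 3 and 0 knockdown peaks and 1, 0 and 0 control peaks. Prickle2 had 3, 1 and 3 knockdown peaks and 0, 0 and 1 control peaks. A control size3 peak was also found at Tcf7l1, Lef1, Vangl1, Celsr1 and Daam2. Overlapping peaks of knockdown 1 and knockdown size3 were found at 6 of the 54, beside 8.52% of all genes, namely Trabd2b, Axin1, Apc2, Ctnnb1, Tcf7l2 and Celsr2.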

How the data were processed

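The submitters' processing notes name cutadapt for trimming, Bowtie2 for alignment, MACS 1.4.2 and the build GRCm38. Per the file headers, MACS 1.4.2 called peaks separately for each immunoprecipitate against its matched input (p cutoff 1.00e-05, band width 300 bp, 1 read kept per position). The deposited read count of a peak is a whole number taken after duplicates were removed. The deposited score is a p-value on a negative log10 scale multiplied by 10. Fold enrichment, as deposited, is the ratio of summit reads to local background. The deposited false discovery rate is a percent. Scores and folds are the authors' own and describe peaks inside one list.

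All 12 samples fell into 4 groups by their titles. Gene spans and promoters came from RefSeq tables of GRCm38.p6. Peaks were counted per gene and library, and knockdown was compared with control over all 21887 genes by an exact two-sided permutation test with Benjamini-Hochberg adjustment. The count of peaks per gene and the exact permutation test were run on simulated data, and the other steps were not. The gene set, its classes, the further pathway genes and the motifs were chosen with earlier results of these data known. Genes described singly had a peak in at least 2 libraries of a group or in a control library, or held the highest fold or score of their class in a library. The promoters printed were chosen after their values were seen. Alternatives covered the window, the overlap, stricter peaks, equal list lengths, each library left out and the replicate label as a block. Python 3.11.15, pandas 2.3.3, numpy 2.4.6 and matplotlib 3.10.9 were used.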

Additional observations from a re-analysis of the deposited data

How the results depend on the processing

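Windows of the gene body alone, 1 kb and 10 kb, the summit in place of any overlap, and the greater part of the peak inside the window kept every number of genes with a peak within 1.5 times, except control size3 with the gene body alone, at 3 genes. With a false discovery rate of at most 5%, knockdown 2, control 1 and control size3 had 0 genes. At a score of at least 100, knockdown 1, 2 and size3 had 11, 1 and 5 genes, control 1 and size3 had 0, and 2 genes recurred in at least 2 knockdown libraries. With 198 peaks from each list, knockdown 1, 2 and size3 had 1, 1 and 2 genes, control 1 and size3 had 0 and 2, and 1 gene recurred. For these stricter or shorter lists the share of all genes with a peak, or recurring, was not counted. The lower numbers are therefore not read as a result about the Wnt genes. Recurrence as overlapping peaks left 10 genes. Leaving out each library gave 3 to 26 recurring genes in knockdown (26 without knockdown 2) and 0 in control. The log2 ratio of genes with a peak, 2.79, was 0.67 at equal list lengths, 3.94 scaled by reads and reversed to -1.31 per 1000 peaks. It lay between 2.09 and 3.71 with each library left out. As a replicate block it was 2.79, with 2 genes at the smallest exact p of 0.25. The 2 genes with groups that did not overlap became 0 at a rate of at most 5%, at a score of at least 100 and at equal list lengths, and 2 to 23 with a library left out. The block rests on shared labels only and changed no other call. With 9 to 19 reads per peak, the 4 knockdown 2 peaks give the least precise values.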
